A study of Mus musculus with 4 samples.

Results

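The genes described here are 10 members of the imprinted growth network: H19, Meg3, Rian, Dlk1, Peg3, Plagl1, Ndn, Cdkn1c, Grb10 and Mest. They were taken by gene symbol from a table of 32681 genes, and all 10 were found and passed the filter on low values that left 18110 genes for testing. RNA was sequenced from 4 primary neuronal cultures prepared from the neocortex of wild-type CD-1 mice at embryonic day 13 and grown in Neurobasal medium with B27. In 2 cultures the transfected short hairpin RNA (shRNA) was a control, and in the other 2 it targeted DcpS. This enzyme breaks down the cap remnant released when an mRNA has been degraded. The titles of both DcpS shRNA libraries carry the same hairpin label, shDcPS-2. Effects of lower DcpS and other effects of that hairpin therefore cannot be told apart here. The share of cells that took up an shRNA and the litter behind each culture are not in the labels. The p-values therefore reflect the spread between these 4 libraries, possibly a technical one. In limma each gene's variance was also moderated towards that of genes of similar level, so a p-value is not from that gene's spread alone. The question put to the data was which transcripts lie downstream of DcpS.

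Genomic imprinting silences 1 parental copy of a gene, so that each imprinted gene is read mainly from the maternal or the paternal chromosome. Many imprinted genes set fetal and placental growth and are active together in embryonic tissues, with paternally expressed genes often promoting growth and maternally expressed genes restraining it. In the developing brain they are known for roles in the exit of precursors from the cell cycle, neuronal migration and survival. Of the genes here, H19, Meg3, Rian and Cdkn1c are read from the maternal copy, and Dlk1, Peg3, Plagl1, Ndn and Mest from the paternal copy. Grb10 is read from the maternal copy in most tissues and from the paternal copy in neurons. The deposited values do not separate the parental copies.

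Of the 10 members, 4 hold annotated microRNA genes on their own strand: H19 holds 1, Meg3 2, Rian 3 and Mest 1. Their mature sequences are shown because these small RNAs are part of what the host loci encode. All 13 that were matched by position and strand in RefSeq (GRCm38.p6) are given, with bases 2 to 8, the seed that pairs with targets, in capitals.
H19, mmu-miR-675-5p: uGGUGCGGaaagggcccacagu
H19, mmu-miR-675-3p: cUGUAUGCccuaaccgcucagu
Meg3, mmu-miR-1906: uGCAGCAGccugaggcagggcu
Meg3, mmu-miR-770-5p: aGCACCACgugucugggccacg
Meg3, mmu-miR-770-3p: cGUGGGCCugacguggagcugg
Rian, mmu-miR-341-5p: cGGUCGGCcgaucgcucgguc
Rian, mmu-miR-341-3p: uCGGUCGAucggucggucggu
Rian, mmu-miR-1188-5p: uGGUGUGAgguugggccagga
Rian, mmu-miR-1188-3p: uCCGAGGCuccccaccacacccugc
Rian, mmu-miR-370-5p: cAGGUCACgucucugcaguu
Rian, mmu-miR-370-3p: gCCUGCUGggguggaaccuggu
Mest, mmu-miR-335-5p: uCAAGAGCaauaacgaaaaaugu
Mest, mmu-miR-335-3p: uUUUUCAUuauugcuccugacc
No pair of these 13 shares a seed. The libraries measured long transcripts by gene, so the levels of the mature microRNAs were not measured.

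With DcpS shRNA the cultures held less H19, Rian and Mest RNA, and the other 7 members did not pass the test in either direction (limma on log2 values, Benjamini-Hochberg adjusted p under 0.05 over all genes tested). In the same comparison 5.79% of all tested genes were called, 3.65% lower and 2.14% higher. The largest difference was in H19, whose mean stood at 63.1% of the control mean, while Rian stood at 87.2% and Mest at 86.2%. The median log2 difference of the 10 members was −0.06, against 0.00074 over all genes tested. Both DcpS shRNA libraries lay below both controls for 5 members and above both for 1, Ndn, so that the groups did not overlap for 6 of 10. Among all genes tested the groups did not overlap for 48.4%, 24% lower and 24.4% higher, so the separation of groups alone is not a result about these genes.

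**Figure D1:**
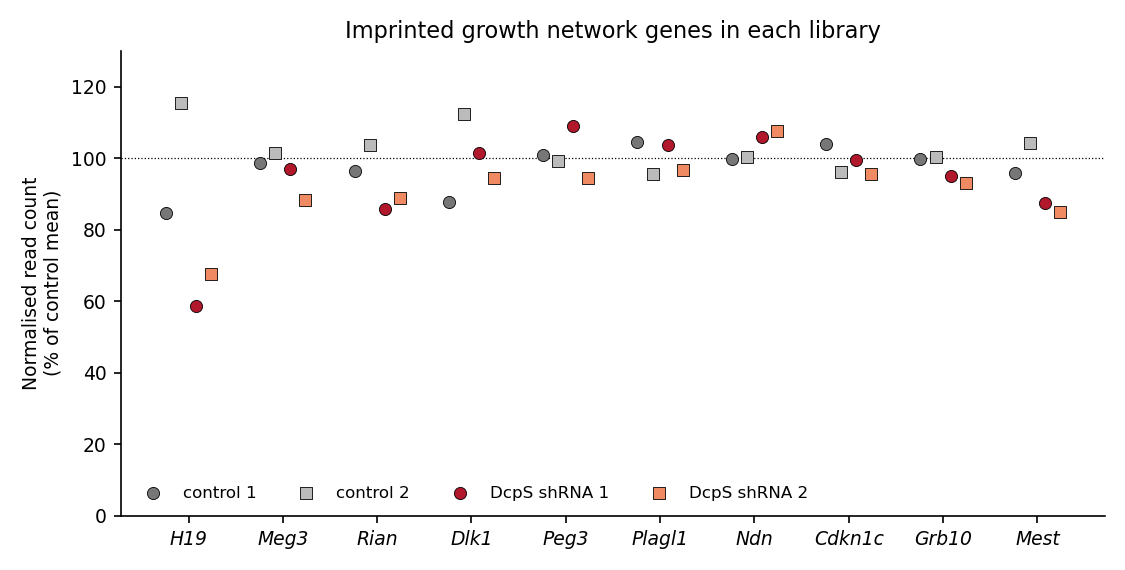
Normalised read count of each gene in each library, as a percent of that gene's mean over the 2 controls (y axis, percent); gray points are controls, red and orange points DcpS shRNA libraries. H19 lies lowest with DcpS shRNA, with a mean at 63.1% of the control mean, and the controls of H19 are themselves far apart.

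Values are normalised read counts, the authors' reads per gene divided by 1 scaling factor per library, and a log2 difference is taken on log2(value + 1). The libraries held 17754768 to 21793685 reads. Dcps, the targeted gene, fell to 23.3% of its control mean, from 499.8 and 506.6 to 114.5 and 119.6. Reads fell on the markers of neurons, the labelled cell type, and also on those of meningeal fibroblasts, endothelial and mural cells, astrocytes, microglia, choroid plexus and red blood cells. The 15 markers of postmitotic cortical neurons summed to 110438 and 112167 in the controls and to 106235 and 107280 with DcpS shRNA. In such mixed cultures, fewer cells of a type and less RNA per cell cannot be told apart.

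H19 is a long noncoding RNA that restrains growth and is made in fetal mesoderm-derived and endodermal tissues (chromosome 7, 142575529 to 142578143, minus strand, GRCm38, GENCODE M21). The 2 controls held 624 and 850.2 normalised reads, and the DcpS shRNA libraries 432 and 497. Both DcpS shRNA values lay below both controls, and the gap between the 2 controls was wider than the gap between the lower control and the higher DcpS shRNA library. The mean fell to 465 ± 45.8 from 737 ± 159.7 (SD, n = 2 per group), a log2 difference of −0.65 (SE 0.14) with a Benjamini-Hochberg limma p of 0.0305. With the moderated variance, the 95% interval of the difference ran from 51.2% to 79.3% of control. The H19 call ended without DcpS shRNA 1 (Benjamini-Hochberg limma p 0.211), without DcpS shRNA 2 (0.101) and with DESeq2 (0.143). Without control 2, the higher control, the log2 difference in H19 was −0.43.

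Igf2, the fetal growth factor that shares enhancers with H19 on the same chromosome, had 78.9 and 89.2 normalised reads in the controls, against 57.2 and 50.3 after DcpS shRNA. Its log2 difference was −0.64 (SE 0.19) and did not pass the test (Benjamini-Hochberg limma p 0.0560), though it did without DcpS shRNA 1 (0.0453). The annotation places 62.8% of the Igf2 exon bases inside another gene model on the same strand, so its reads may be split. H19 had 7.92 and 9.53 times the normalised reads of Igf2 in the controls and 7.56 and 9.89 times with DcpS shRNA. This ratio within a library, which does not depend on the scaling, differed between the groups by −0.0068 on the log2 scale, less than the spread within either group (SD 0.19 and 0.27, n = 2 each).

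Most markers of meningeal fibroblasts, a cell class of the brain coverings, were lower in the same libraries as H19. Of 20 markers, all with reads, 14 were lower and 6 did not pass, with a median log2 difference of −0.69 (limma, Benjamini-Hochberg). The log2 difference was negative for 18 and positive for 2. The 6 that did not pass were the transcription factor genes Foxc1, Foxd1 and Twist1, and Slc6a13, Ogn and Crabp2. The normalised reads of all 20 markers summed to 21304 and 22894 in the controls, against 13456 and 12776 after DcpS shRNA. The DcpS shRNA sums were 60.9% and 57.8% of the control mean. The largest falls, as log2 differences, were in the matrix proteins Thbs2 (−1.16, SE 0.14), Fbn1 (−1.08, SE 0.18) and Postn (−1.07, SE 0.08). The call of Fbn1 ended without any filter on low values (Benjamini-Hochberg limma p 0.0947) and in a fit with the replicate number as a block (0.299). Of 10 tested endothelial and mural markers 3 were lower, Acta2 (−1.93, SE 0.23), Kdr (−0.74, SE 0.18) and Pdgfrb (−0.72, SE 0.09). The log2 difference was negative for 8 of the 10. It was positive for the other 2, for which both DcpS shRNA libraries lay above both controls. All 14 listed markers of these cells summed to 909 and 971 in the controls, against 611 and 581 after DcpS shRNA. Kdr did not pass with control 2 left out (Benjamini-Hochberg limma p 0.277) or in DESeq2 (0.217). The part of these cell types in the lower H19 level was not tested.

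**Figure D2:**
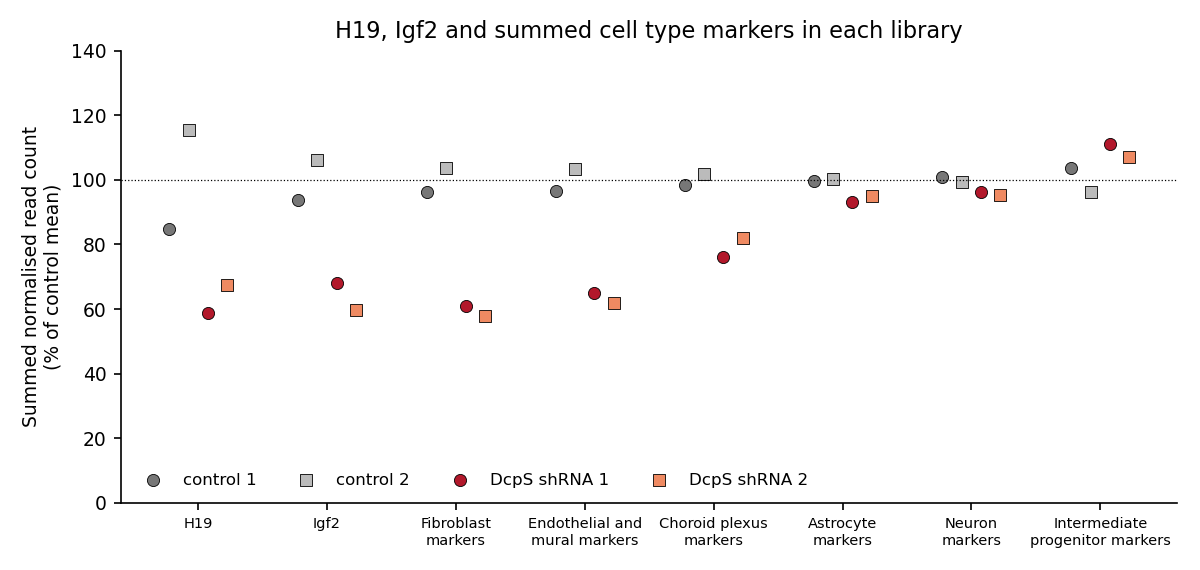
H19, Igf2 and the summed markers of 6 cell types in each library, as a percent of the control mean (y axis, percent of the summed normalised read count). H19, Igf2, fibroblast markers (60.9% and 57.8%) and endothelial and mural markers (65.0% and 61.8%) are all low in both DcpS shRNA libraries, while neuron markers stand at 96.4% and 95.4%.

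The sums of the other marker lists moved less than those of the fibroblast and of the endothelial and mural markers. Astrocyte markers summed to 16175 and 16271 in the controls and, with DcpS shRNA, to 15126 and 15405. Of 11 tested, 5 were lower and 1 higher, and the log2 difference was negative for 9 and positive for 2. Their median log2 difference was −0.43, against −0.53 for the endothelial and mural markers. The lower ones were led on the log2 scale by Aqp4 (−1.13), Gfap (−0.91) and Gja1 (−0.67). Gfap and Aqp4 did not pass without control 2 (Benjamini-Hochberg limma p 0.250 and 0.0698) or without DcpS shRNA 1 (0.0957 and 0.0501), nor did Gfap without DcpS shRNA 2 (0.113) or Aqp4 in DESeq2 (0.110). Choroid plexus markers summed to 76.3% and 81.9% of the control mean, with 2 of 8 lower, Aqp1 (−0.71) and the thyroxine carrier Ttr (−0.38). Aqp1 did not pass without control 2 (Benjamini-Hochberg limma p 0.301), without control 1 (0.0628), without DcpS shRNA 1 (0.165), with library-total scaling (0.0506) or in DESeq2 (0.365). Intermediate progenitor markers summed to 111% and 107%, with 4 of 9 higher, led by the proneural factor Neurod4 (0.67), Btg2 (0.40) and Rhbdl3 (0.38). Neurod4 did not pass without control 2 (Benjamini-Hochberg limma p 0.149) or in DESeq2 (0.135).

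Rian is a long noncoding RNA of the Dlk1-Dio3 cluster and the host of many small nucleolar RNAs (chromosome 12, 109603940 to 109661716, plus strand). The 2 controls held 4172 and 4492 normalised reads, and the DcpS shRNA libraries 3711 and 3845. The groups did not overlap, and the mean fell to 3778 ± 94.6 from 4332 ± 226 (SD, n = 2 per group). The log2 difference was −0.20 (SE 0.05), with a Benjamini-Hochberg limma p of 0.0435 and a 95% interval of 80.6% to 94.5% of control. The Rian call ended without control 1 (Benjamini-Hochberg limma p 0.0814), without control 2 (0.479) and with DESeq2 (0.107).

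Meg3, the neighbouring maternally expressed long noncoding RNA, known as a growth suppressor, is read in the same direction just upstream of Rian (chromosome 12, 109541001 to 109571726, plus strand). It had 8670.3 and 8908 normalised reads in the controls, against 8528 and 7768 after DcpS shRNA. The values did not overlap, but DcpS shRNA 1 lay closer to the controls than to DcpS shRNA 2. The log2 difference of −0.11 (SE 0.05) did not pass (Benjamini-Hochberg limma p 0.293), with a 95% interval of 85.5% to 100.3% of control. Without DcpS shRNA 1 it was −0.18 and passed (0.00741). The ratio of Rian to Meg3 was 0.481 and 0.504 in the controls, against 0.435 and 0.495 after DcpS shRNA, so the groups overlapped on this ratio.

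Mirg, another noncoding RNA further along the cluster that holds 14 microRNA genes by the same match, had 67.5 and 80.0 normalised reads in the controls, against 72.7 and 52.5 after DcpS shRNA (log2 difference −0.25, SE 0.20, Benjamini-Hochberg limma p 0.570). Dlk1 encodes a membrane protein related to Notch ligands that holds precursor cells undifferentiated, and it was by far the lowest member. It had 45.6 and 58.5 normalised reads in the controls, against 52.7 and 49.2 after DcpS shRNA. The DcpS shRNA values lay between the controls, and at 44 to 58 reads per library the 95% interval was wide, 72.2% to 135% of control. The log2 difference was −0.02 (SE 0.21, Benjamini-Hochberg limma p 0.975). Meg3 exceeded Dlk1 by 152 to 190.1 times in the controls and by 158 to 162 times with DcpS shRNA. Rtl1, a retrotransposon-derived gene read from the paternal copy, had 24.7 and 19.5 normalised reads in the controls, against 30.9 and 40.2 after DcpS shRNA (0.66, SE 0.28, Benjamini-Hochberg limma p 0.212). Dio3, which inactivates thyroid hormone, did not pass the filter.

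Mest encodes a hydrolase-like protein of the endoplasmic reticulum that is abundant in embryonic mesoderm (chromosome 6, 30723547 to 30748465, plus strand). It had 1565 and 1705 normalised reads in the controls, against 1430.1 and 1390.2 after DcpS shRNA. Both DcpS shRNA values were below both controls, and the mean fell to 1410.1 ± 28.2 from 1635 ± 99.4 (SD, n = 2 per group). The log2 difference was −0.21 (SE 0.06), with a Benjamini-Hochberg limma p of 0.0479 and a 95% interval of 79.1% to 94.2% of control. The Mest call ended without control 2 (Benjamini-Hochberg limma p 0.451), without DcpS shRNA 2 (0.0864), with DESeq2 (0.222) and with library-total scaling (0.0509). The annotation shows 23.1% of Mest exon bases shared with Copg2 on the opposite strand, and whether counting used strand is not given in the sources used here. Copg2, a coat protein gene, had a log2 difference of 0.07 (SE 0.06) and did not pass (Benjamini-Hochberg limma p 0.593).

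**Figure D3:**
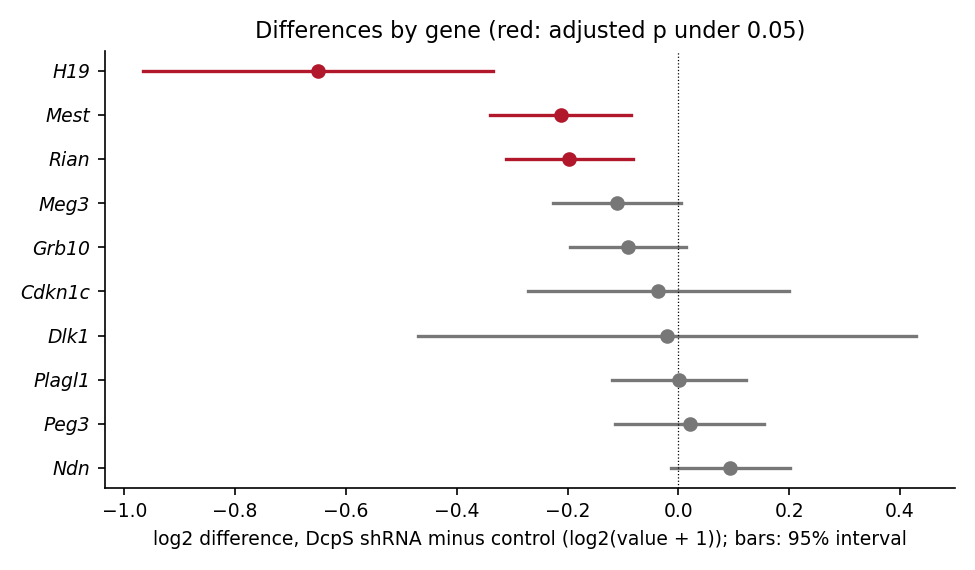
Log2 difference of each gene, DcpS shRNA minus control on log2(value + 1), with its 95% interval from the limma fit (x axis); red marks an adjusted p under 0.05. Only H19, Mest and Rian are red, at −0.65, −0.21 and −0.20, and the interval of Dlk1 is the widest of the 10.

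Cdkn1c encodes p57, an inhibitor of cyclin-dependent kinases that takes cortical precursors out of the cell cycle. It had 229.9 and 212 normalised reads in the controls, against 219.9 and 211 after DcpS shRNA. The groups overlapped, and the 95% interval was 82.8% to 115% of control (log2 difference −0.04, SE 0.11, Benjamini-Hochberg limma p 0.911). An antisense gene model covers 30.6% of the Cdkn1c exon bases, so without strand their reads cannot be told apart.

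Plagl1, a zinc-finger transcription factor that regulates other imprinted genes, had 6432 and 5879 normalised reads in the controls, against 6379 and 5943 after DcpS shRNA. These ranges overlapped almost entirely, and the interval was 92.1% to 109% of control (0.0018, SE 0.06, Benjamini-Hochberg limma p 0.992). Peg3, a zinc-finger protein known for effects on maternal behaviour and cell survival, had 2734 and 2685 in the controls, against 2954 and 2557 after DcpS shRNA. The DcpS shRNA libraries lay on either side of the controls, and the interval was 92.4% to 111% of control (0.02, SE 0.06, Benjamini-Hochberg limma p 0.910). Usp29, the paternally expressed neighbour of Peg3, was at 610.0 and 599 in the controls, against 609.6 and 612 after DcpS shRNA (0.02, SE 0.07, Benjamini-Hochberg limma p 0.944). Zim1, the maternally expressed neighbour, was at 148 and 162 against 178 and 247, with no overlap but without passing (0.43, SE 0.15, Benjamini-Hochberg limma p 0.104). Without DcpS shRNA 1 the difference in Zim1 was 0.67 and passed (Benjamini-Hochberg limma p 0.00387).

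Ndn encodes necdin, a protein of postmitotic neurons in the Prader-Willi region that restrains E2F-driven division and limits cell death. The 2 controls held 3414 and 3431 normalised reads, and the DcpS shRNA libraries 3625 and 3679. Both DcpS shRNA libraries lay above both controls, the opposite order to H19, and replicates were close (SD 12.4 and 37.9). The log2 difference of 0.09 (SE 0.05) did not pass (Benjamini-Hochberg limma p 0.349), with a 95% interval of 99.0% to 115% of control. Other paternally expressed genes of that region did not pass either (limma, Benjamini-Hochberg). Mkrn3, a ubiquitin ligase gene, had 259 and 247 normalised reads in the controls, against 315.3 and 315.1 after DcpS shRNA (0.31, SE 0.10, Benjamini-Hochberg limma p 0.0773). Magel2, a relative of Ndn, had 54.2 and 48.2 against 70.9 and 61.5 (0.36, SE 0.20, Benjamini-Hochberg limma p 0.351). The splicing gene Snrpn differed by 0.09 (SE 0.06) and Peg12 by less than 0.01, and the maternally expressed ubiquitin ligase Ube3a by −0.11 (SE 0.05). The ratio of Ndn to Magel2 was 63.0 and 71.2 in the controls, against 51.2 and 59.9 after DcpS shRNA.

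Grb10 encodes an adaptor that binds insulin and insulin-like growth factor (IGF) receptors and dampens their signal. It had 6173 and 6219 normalised reads in the controls, against 5877 and 5762 after DcpS shRNA. The groups did not overlap, yet the log2 difference of −0.09 (SE 0.05) did not pass (Benjamini-Hochberg limma p 0.355), with an interval of 87.3% to 101% of control. Ddc, its neighbour, did not pass the filter. Around Cdkn1c, the antisense RNA Kcnq1ot1 was at 468 and 492 in the controls, against 536 and 456 after DcpS shRNA (0.04, SE 0.09), while Phlda2 and Slc22a18 did not pass the filter.

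Per length, in RPKM (reads scaled by the kilobases of annotated exon and by library size), the members ran from 48.3 to 0.459, averaged over the 4 libraries. Ndn was highest, followed by Plagl1 (39.7), Grb10 (33.4), Meg3 (23.6), Mest (19.5), H19 (12.3), Rian (11.2), Peg3 (10.3), Cdkn1c (5.40) and Dlk1. The ranges over the 4 libraries overlapped for Meg3 and Mest, for H19 and Rian and for Rian and Peg3, and did not for the other neighbours in this order. H19 was the most variable, from 8.88 to 17.5, a range that also covers that of Peg3. Its place differed by group, with a mean RPKM of 15.1 in the controls, above the means of Rian and Peg3 (10.3), and of 9.53 with DcpS shRNA, below Rian (10.5) and Peg3 (10.4). Length is the union of all annotated exons, which is 18089 bases for Meg3 and 18234 for Rian, so levels of genes with long alternative forms are understated. The 3 highest members, Ndn, Plagl1 and Grb10, did not pass the test.

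**Figure D4:**
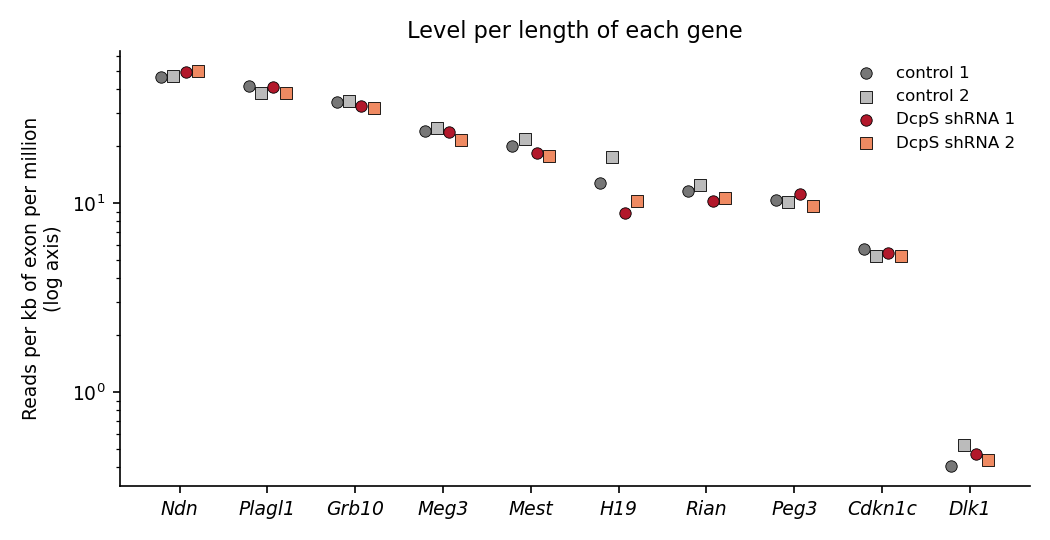
Level of each gene per length in each library, in RPKM (y axis, log scale), ordered from the highest mean, Ndn at 48.3, to the lowest, Dlk1 at 0.459. H19 shows the widest scatter, from 8.88 to 17.5.

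Beyond the members, most imprinted genes did not pass the test. Of 56 on a list of imprinted genes outside the members, 52 were in the table and 42 passed the filter, of which 4 were lower and the other 38 did not pass (9.52% called, against 5.79% of all genes tested). Their median log2 difference was 0.0035. Peg10, a retrotransposon-derived gene read from the paternal copy, fell by 0.46 (SE 0.07) on the log2 scale, from 815 and 762 to 597 and 548 normalised reads (Benjamini-Hochberg limma p 0.00113). Igf2r, a receptor that carries IGF2 to lysosomes, is listed as maternally expressed. It fell by 0.29 (SE 0.06), from 2164 and 2346 to 1933 and 1758 (Benjamini-Hochberg limma p 0.00962). Trappc9, a trafficking subunit, fell by 0.24 (SE 0.06), and the matrix proteoglycan Dcn, which is also on the fibroblast list, by 0.47 (SE 0.10). Without control 2 the calls of Igf2r (Benjamini-Hochberg limma p 0.136), Trappc9 (0.172) and Dcn (0.0717) ended, which left 1 call, and DESeq2 made 2. By listed parental copy, 1 of 22 paternally expressed genes and 3 of 20 maternally expressed genes were lower. The difference between these shares was not tested, and the copy in use in these cultures was not measured.

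The IGF axis list holds receptors and signalling genes, secreted IGF-binding proteins and RNA-binding proteins named for Igf2 mRNA. Of its 18 tested genes 8 were lower, 1 was higher and 9 did not pass (50% called, against 5.79% of all genes tested). Their median log2 difference was −0.29. The lower genes were the receptors Igf1r and Insr, the adaptor Grb2, Pik3r1, the binding proteins Igfbp2, Igfbp5 and Igfbp7, and Igf2bp3, and the higher one was Igf2bp1. Insr did not pass without control 1 (Benjamini-Hochberg limma p 0.165), control 2 (0.136) or DcpS shRNA 2 (0.124) or in DESeq2 (0.135), nor did Igfbp2 without control 2 (0.0774). By log2 difference, the binding protein Igfbp7 (−1.34, SE 0.25), the RNA-binding protein Igf2bp3 (−0.73, SE 0.11), the phosphoinositide 3-kinase subunit Pik3r1 (−0.53, SE 0.06) and Igfbp5 (−0.43, SE 0.05) fell the most among those called. Of the 8 lower genes 4, Igf1r, Grb2, Igf2bp3 and Pik3r1, carry ACGTGCA or CACGTGC in an annotated 3′ untranslated region, and with such genes left out 4 of 13 were lower. Those 7-base words, both also present in the Dcps transcript, were present in 33.1% of the called lower genes scanned. They were present in 6.25% of the called higher genes scanned and in 8% of all scanned genes tested. The setting that leaves out genes with these words was chosen after seeing the data. Whether the words themselves were chosen independently of these calls is not shown, so the shares are a description only. No cause of the lower levels was tested with them.

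None of the 7 protein-coding members carried either word in the 3′ untranslated region of a coding transcript, and neither H19, Meg3 nor Rian carried one anywhere in its annotated transcripts. Within coding transcripts but before the 3′ untranslated region, Dlk1 and Peg3 held matches, shown with CACGTGC in capitals. The Peg3 stretch also holds ACGTGCA, which overlaps the capitals on either side and is not marked separately.
Dlk1: ttcatgggtccCACGTGCgcgaagaagcg
Peg3: tcgtctacgtgCACGTGCacgagagcagc
The same Peg3 stretch lies in the 3′ untranslated region of a Peg3 transcript annotated for nonsense-mediated decay. A retained-intron transcript of Peg3 holds both words in another stretch. A match is a run of letters and not a shown site, and neither Dlk1 nor Peg3 was called.

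Partners of p57 in the G1 phase of the cell cycle showed no calls. Of 17 genes, among them Cdk4, Ccnd2 and Cdkn1b, 0 passed in limma, where 2 had an unadjusted p under 0.05. In edgeR and in DESeq2 0 of the 17 passed. With 5.79% of all genes tested called in limma, 0 of 17 is not a result about these genes. Their median log2 difference was 0.04. Among 6 tested genes linked to H19 through let-7 and LIN28, the microRNA-processing enzyme Dicer1 was lower (−0.22, SE 0.06) and the RNA-binding protein Igf2bp1 higher (0.24, SE 0.07). Dicer1 carries CACGTGC in its 3′ untranslated region, and with genes holding either word left out 0 of 4 were called, with 2 at an unadjusted limma p under 0.05. Dicer1 did not pass without control 1 (Benjamini-Hochberg limma p 0.0857), control 2 (0.254) or DcpS shRNA 2 (0.0696), nor did Igf2bp1 without control 1 (0.464) or either DcpS shRNA library (0.0561 and 0.0567), and DESeq2 called neither.

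**Figure D5:**
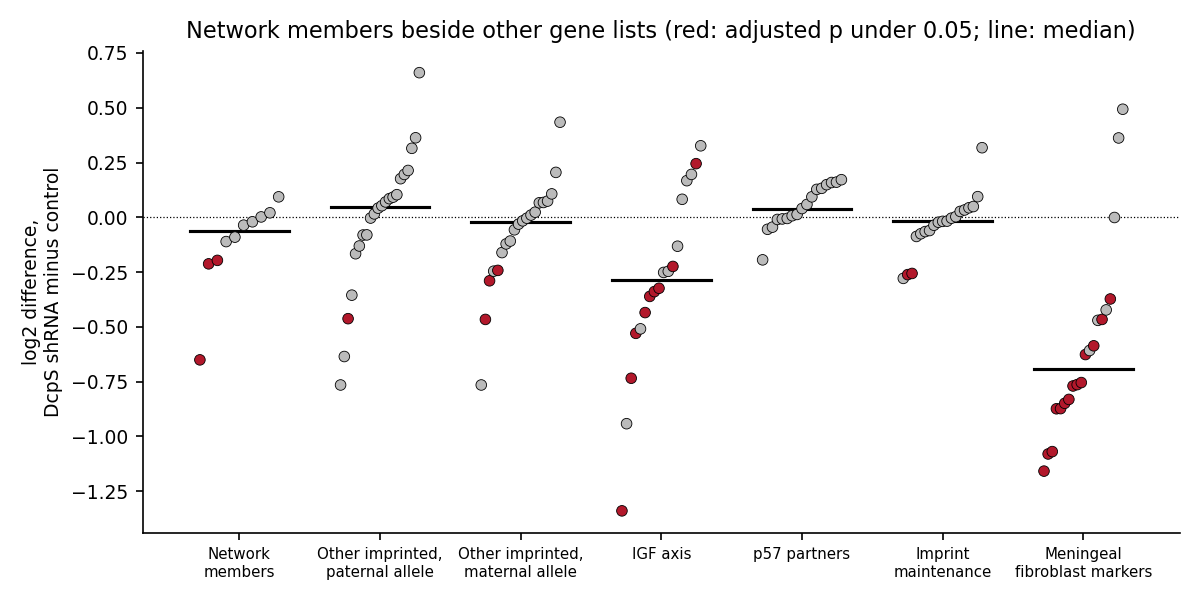
Log2 difference of each tested gene, DcpS shRNA minus control (y axis), for the network members and 6 other gene lists; each point is a gene, red where the adjusted p is under 0.05, and the line is the list's median. The members' median of −0.06 lies near 0, below it lie the IGF axis at −0.29 and the fibroblast markers at −0.69.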

How the data were processed

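The deposited table holds 1 column per library of a signal that the authors scaled. Each value was a whole multiple of its column's step (100% of values within 0.001), and the steps gave the same factors as median-of-ratios scaling, so whole reads were recovered. HISAT2 2.2.0, SAMtools 1.3.1, Picard, featureCounts, DESeq2 and GRCm38 are named, per the submitters' processing notes. Annotation and strand setting: not given in the sources used here.

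Differences were tested with limma 3.58.1 (trend, robust) on log2(value + 1) with group as the only term, after edgeR 4.0.16 filterByExpr (minimum count 10), two-sided, with Benjamini-Hochberg adjustment over 18110 genes. An exact permutation test of 2 against 2 cannot go below p = 0.333. Alternatives were TMM and library-total scaling, no filter, pseudocounts of 0.5 and 5, edgeR and DESeq2 1.42.0 on recovered reads, a replicate block, leaving out each library, and leaving out genes whose 3′ untranslated region holds ACGTGCA or CACGTGC. The method was tested on simulated reads in which all set changes were larger than those in Rian and Mest, so it does not cover changes of that size. Positions and exon lengths are from GENCODE M21. The members and lists were chosen with earlier results of these data known. All members are named, with imprinted genes that neighbour them or were called, at most the 4 largest called genes of a pathway list and the 3 largest of a marker list. The other called genes of the IGF list were named after their values were seen.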

Additional observations from a re-analysis of the deposited data

How the results depend on the processing

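The members' count of calls was 3 in the main setting and 3 with TMM scaling, without a filter, with either other pseudocount, with edgeR and with the replicate block. It was 2 with library-total scaling, 0 with DESeq2 (3 at an unadjusted p under 0.05) and 1 with genes holding ACGTGCA or CACGTGC in the 3′ untranslated region left out, a setting chosen after seeing the data. There the log2 differences are the same, while the variance moderation and the adjustment were both redone over 17013 genes. The Benjamini-Hochberg limma p was 0.0526 for Rian and 0.0573 for Mest. Leaving out each library in turn changed which members were called every time, and such a fit leaves 1 library in a group. Without DcpS shRNA 1, for example, the call of H19 ended and Meg3 was called. H19, Rian and Mest were lower in each of the 13 alternatives, H19 with log2 differences of −0.87 to −0.43, Rian −0.25 to −0.14 and Mest −0.27 to −0.15, and passed in 10, 9 and 8 of them. The cause of the differences between tools was not tested. The count over all genes, 1048, was 448 with DESeq2 and 1626 with the replicate block, and 594 to 1439 without 1 library, with 670 without control 1 and 594 without control 2. The count over the lists of other imprinted and pathway genes, 16, was 10 with DESeq2, 9 with the genes holding those words left out and 9 to 20 without 1 library, with 10 without control 1 and 9 without control 2. With the replicate block it was 23 of 101, Igf2 (Benjamini-Hochberg limma p 0.0196), Mkrn3 (0.0364) and Zim1 (0.0130) passed, and no member's call changed. The titles number the libraries of each group as sets 1 and 2. No label says that a number is a shared preparation, so the numbers are not treated as pairs. Same-numbered libraries deviated from their group means with a correlation of 0.04 over genes, which cannot show whether they share a preparation. Depth limits Dlk1 most.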

Other observations

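Among genes that maintain or read imprints, 2 of 19 tested were lower and 17 did not pass (limma, Benjamini-Hochberg). This was 10.5% called, against 5.79% of all genes tested. Dnmt1, the maintenance DNA methyltransferase, fell by 0.26 (SE 0.05) on the log2 scale, from 5268 and 5305 normalised reads in the controls to 4540.1 and 4283 with DcpS shRNA. The 5-methylcytosine oxidase gene Tet2 fell by 0.26 (SE 0.07), from 1180.1 and 1197 to 1052 and 941. Without control 1 or control 2 neither passed (Benjamini-Hochberg limma p 0.0593 and 0.0812 for Dnmt1, 0.0828 and 0.136 for Tet2), and Tet2 did not pass without DcpS shRNA 2 (0.153) or with DESeq2 (0.181). Dnmt1 carries both 7-base words in its 3′ untranslated region. The imprint-guarding zinc-finger gene Zfp57 was at 3969 and 3777 against 3649 and 3754, and its partner Trim28 at 9210.0 and 8893 against 8980.2 and 9072, and neither passed. DNA methylation was not measured.

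In the remaining marker lists, by log2 difference, 2 of 12 radial glia genes were higher, Gli3 (0.39) and Nes (0.27), and Hopx was lower (−0.50). Of 10 microglia genes Laptm5 was higher (0.73), of 9 interneuron genes Npy (1.13), and of 15 neuron genes Slc17a7 (0.52) and Rbfox3 (0.24) were higher and Snap25 (−0.26) and Syt1 (−0.22) lower. Over all genes tested 5.79% were called in limma. Of 7 red blood cell genes 0 passed in limma, edgeR or DESeq2, and 0 had an unadjusted p under 0.05 in limma. Without control 1, 3 of these 7 were higher. Without control 1, Nes (Benjamini-Hochberg limma p 0.0662), Laptm5 (0.223), Snap25 (0.102) and Syt1 (0.0563) did not pass, and without control 2 neither did Nes (0.0688), Rbfox3 (0.310) or Syt1 (0.318). Laptm5 did not pass without DcpS shRNA 1 (0.128) and Rbfox3 without DcpS shRNA 2 (0.0586). DESeq2 called none of Hopx, Laptm5, Npy, Rbfox3 and Syt1.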
